A study of Rattus norvegicus with 6 samples.

Results

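Interferons are secreted alarm proteins of the response to viruses and other microbes. Type I interferons bind the receptor chains Ifnar1 and Ifnar2, type II interferon binds Ifngr1 and Ifngr2, and the kinases Jak1, Jak2 and Tyk2 pass the signal to STAT proteins. Stat2 and Irf9 then join a further STAT protein in a complex that binds interferon-stimulated response elements, abbreviated ISRE, in the promoters of antiviral genes. The set described here holds 36 genes of this system among the 26456 gene names on the array. The genes were chosen by name, with earlier results of these data known. They were sorted by role into 4 sensors of foreign RNA, 6 receptors and kinases, 7 transcription factors, 16 antiviral effectors and 3 feedback inhibitors. Of the 36 names, 35 had spots on the array, through 38 probes, and Tyk2 had none under this name. Of these, 32 genes were bright enough to be tested. The roles given are those known from human and mouse.

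The samples were left ventricles of 6 male rats, each read on 1 Agilent array in 1 colour. There were 3 OLETF rats, an obese strain with type 2 diabetes, of which OLETF 1 and OLETF 3 were 27 weeks old and OLETF 2 was 28 weeks old. They were set against 3 rats of the non-diabetic control strain LETO, of which LETO 1 was 27 weeks old and LETO 2 and LETO 3 were 28 weeks old. Strain and diabetes go together in these groups and cannot be told apart, and the labels name no treatment or transgene. Signals are given as log2 of the signal over the array's 75th percentile, and a difference is OLETF minus LETO on that scale. Signal levels of different probes are not compared.

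All 6 cardiomyocyte markers were well above background on all 6 arrays. Their summed signal, in multiples of the 75th percentile, was 1754 to 2171 in OLETF and 1871 to 2132 in LETO. Between 75.5% and 79.8% of spots were well above background on each array. LETO 1 stood apart on the second principal component, at 33.3, with the other arrays between −19.5 and 4.25. OLETF 1 shared a slide with the 3 LETO arrays, and OLETF 2 and OLETF 3 lay on a second slide. The difference within the first slide, which is also the value with slide as a block, is therefore OLETF 1 against the 3 LETO arrays. The title and the source name of LETO 2 give different replicate numbers, and the titles were followed here. In whole tissue, fewer cells of a type and less RNA per cell cannot be told apart.

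Promoters from the RefSeq table, build GRCr8, are shown for the 12 members whose window holds a core ISRE. This is the element that the complex with Stat2 and Irf9 binds. The table had a promoter for 25 of the 35 genes on the array, running from 250 bases before the start to 50 after it. Promoters of Ddx58, Dhx58, Jak1, Irf2, Isg15, Mx2, Ifit1, Ifit2, Ifitm1 and Usp18 were not used here. The motif searched was GAAA, then any 2 bases, then GAAA, on both strands, so that it also reads TTTC, any 2 bases, TTTC. It was in 12 of the 25 promoters, or 48%, against 3.92% of the 33469 promoters in the table. Of 43 further interferon-induced genes that were tested and had a promoter, 19 had it, or 44.2%. Of the members that passed the test in OLETF against LETO, the motif was in Ifi44 and Ifi27 and not in these windows of Stat2 and Ifnar1. The 250 bases before the start are given 5′ to 3′ for Ifi44 and Ifi27, at chr2:243303841-243304090 (minus strand) for Ifi44 and chr6:128355062-128355311 (plus strand) for Ifi27, with motif matches in capitals.
Ifi44: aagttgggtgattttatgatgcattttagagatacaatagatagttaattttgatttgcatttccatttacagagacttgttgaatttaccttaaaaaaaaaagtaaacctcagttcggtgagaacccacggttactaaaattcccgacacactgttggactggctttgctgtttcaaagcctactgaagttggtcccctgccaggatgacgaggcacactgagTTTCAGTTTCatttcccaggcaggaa
Ifi27: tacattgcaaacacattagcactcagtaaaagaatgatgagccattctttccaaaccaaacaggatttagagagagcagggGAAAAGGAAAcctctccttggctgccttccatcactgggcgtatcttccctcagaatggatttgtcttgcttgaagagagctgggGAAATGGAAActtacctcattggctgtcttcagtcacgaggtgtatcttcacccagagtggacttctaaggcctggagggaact

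Ifi44 had 1 match before the start, from −26 to −17, and another after it, from 27 to 36. Ifi27 had matches from −169 to −160 and from −84 to −75. In the other 10 genes the match is shown in its strand of transcription with up to 15 bases on each side. A stretch of 16 capitals holds a pair of overlapping matches, as in Oas1a, Bst2 and Socs1.
Irf7: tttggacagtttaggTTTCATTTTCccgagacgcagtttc
Rsad2: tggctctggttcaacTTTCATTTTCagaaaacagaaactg
Oas1a: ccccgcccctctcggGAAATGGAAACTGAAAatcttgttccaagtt
Ifih1: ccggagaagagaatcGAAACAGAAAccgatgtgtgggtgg
Ifit3: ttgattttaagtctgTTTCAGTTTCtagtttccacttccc
Gbp2: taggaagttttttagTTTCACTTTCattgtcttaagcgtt
Ifitm3: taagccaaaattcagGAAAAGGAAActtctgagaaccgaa
Bst2: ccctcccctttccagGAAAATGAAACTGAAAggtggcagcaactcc
Eif2ak2: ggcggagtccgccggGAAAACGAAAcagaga
Socs1: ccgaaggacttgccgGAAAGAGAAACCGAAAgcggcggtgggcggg

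These windows lie at chr1:205800068-205800107 (minus strand) for Irf7, chr6:48788243-48788282 (minus strand) for Rsad2, chr12:41330410-41330455 (plus strand) for Oas1a, chr3:67684003-67684042 (minus strand) for Ifih1, chr1:241527267-241527306 (plus strand) for Ifit3, chr2:234005681-234005720 (plus strand) for Gbp2, chr1:205541778-205541817 (minus strand) for Ifitm3, chr16:18255068-18255113 (minus strand) for Bst2, chr6:21941123-21941153 (plus strand) for Eif2ak2 and chr10:5389452-5389497 (plus strand) for Socs1. The first bases of these matches lay from −147 in Rsad2 to −16 in Eif2ak2. A second motif, TTCNNNGAA with N for any base, the core of the gamma-activated site, reads the same on both strands and was in 7 of the 25 promoters, against 8.87% of all promoters. These were Irf1, Irf8, Irf9, Oas1a, Bst2, Ifitm3 and Socs1, and in Bst2 the match overlapped an ISRE match. Of the 43 further interferon-induced genes, 10 had this second motif, or 23.3%. Among tested members, the 12 with an ISRE match had a median difference of 0.43, and 11 were positive, the exception being Socs1 at −0.17. The 12 without a match had a median of 0.20, with 7 positive and 5 negative, and ranged from −1.06 in Socs3 to 0.84 in Ifnar1. The 7 include Oasl, which was tested only because it was above background in OLETF. Within the first slide 11 of the 12 with a match and 9 of the 12 without were positive, with medians of 0.40 and 0.20. Most tested genes with an ISRE match were effectors, and most without were receptors, kinases or transcription factors. Motif and role are therefore not told apart in these medians. A match is a description of the letters in the window and not evidence of binding.

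**Figure D1:**
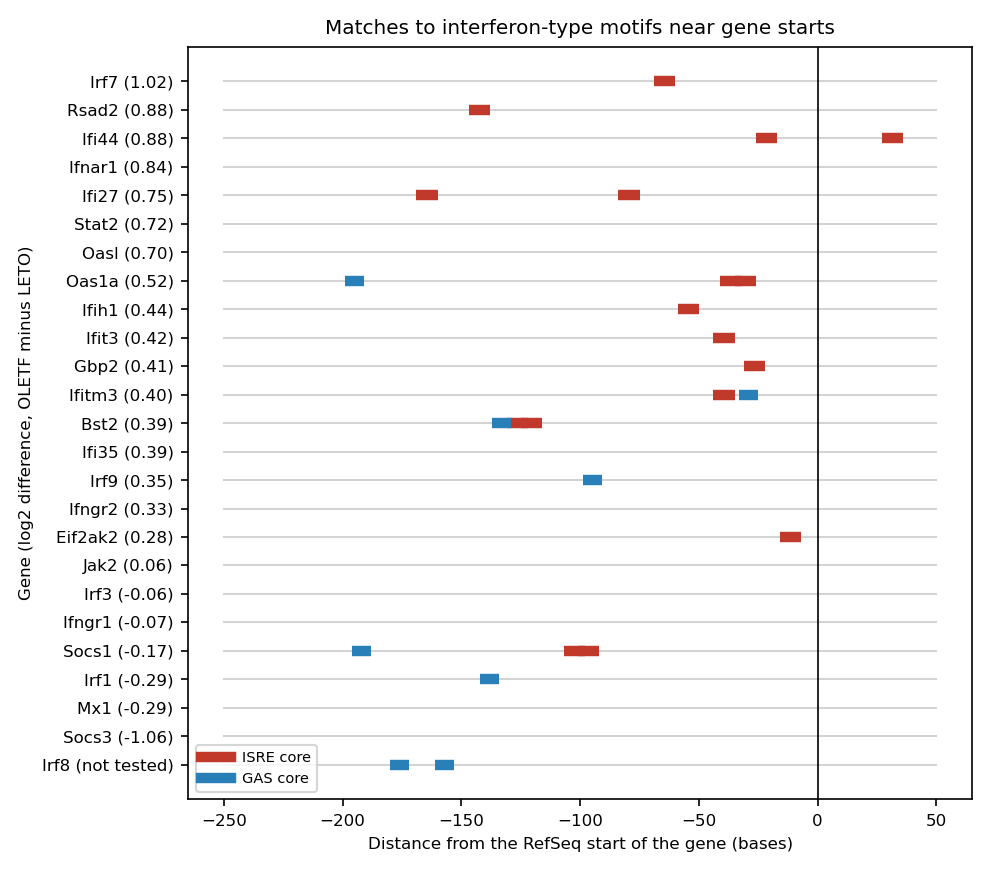
Positions of matches to the ISRE core (red) and the gamma-activated site core (blue) in 25 promoters, as distance in bases from the RefSeq start. Genes run down the page by their log2 difference between OLETF and LETO, given in brackets, and 11 of the 12 tested genes with a red match have a positive difference.

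Of the 32 tested members, 4 were higher in OLETF at an adjusted p below 0.05, namely Stat2, Ifnar1, Ifi44 and Ifi27, and 0 were lower (limma, Benjamini-Hochberg over 18820 genes). Among all genes tested 1.5% were higher and 1.05% were lower by the same test. At an unadjusted p below 0.05, 17 members were higher and 3 were lower, against 6.21% of all genes in each direction. The median difference of the tested members was 0.37, beside −0.01 over all genes, and 23 of the 32 were positive, against 47.6% of all genes. In 14 members every OLETF array lay above every LETO array, and in 4 every OLETF array lay below, against 8.93% and 8.43% of all genes. Oasl, counted among the positive members, was tested only because it was above background in OLETF. With slide as a block 0 members passed, 0.276% of all genes were then higher, the members' median was 0.31, and 26 were positive. Leaving out an OLETF array gave 4 members called higher without OLETF 1, beside 0.949% of all genes, 1 without OLETF 2, beside 0.567%, and 1 without OLETF 3, beside 0.685%. Leaving out a LETO array gave 8 members without LETO 1, beside 1.98% of all genes, 3 without LETO 2, beside 0.873%, and 2 without LETO 3, beside 0.939%. The 8 include Oasl, which was not above background on either LETO array that remained. Ifitm1 was called lower without LETO 1, where 1.28% of all genes were.

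**Figure D2:**
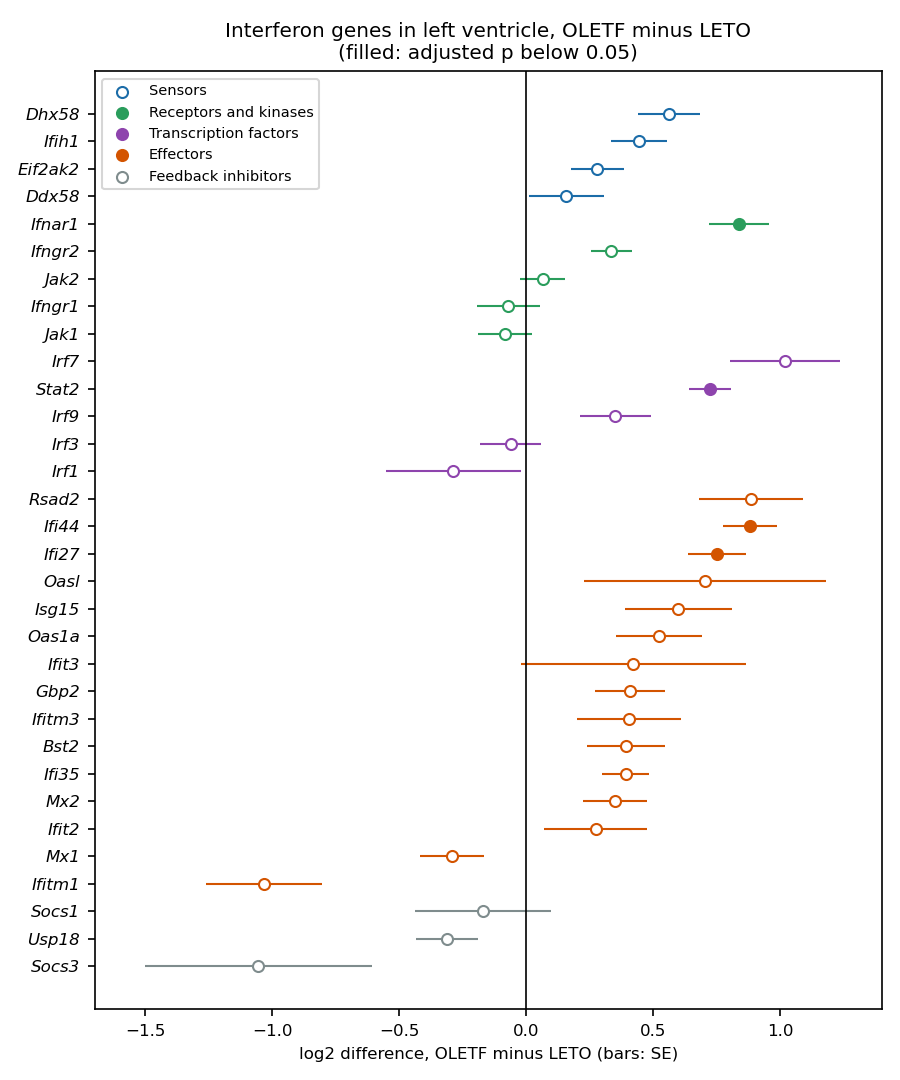
Log2 difference between OLETF and LETO for the 32 tested members by role, as points with standard errors (n = 3 arrays per strain); filled points passed at an adjusted p below 0.05. The filled points are Ifnar1, Stat2, Ifi44 and Ifi27, all right of 0, and the 3 feedback inhibitors lie left of it.

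The sensors recognise viral RNA inside the cell. All 4 had positive differences, with a median of 0.36, and 0 passed over all genes. Dhx58, also called LGP2, which tunes the other RNA helicase sensors, had −2.80, −2.62 and −2.74 in OLETF 1 to 3 and −3.06, −3.35 and −3.44 in LETO 1 to 3. The groups did not overlap, and the difference was 0.56 ± 0.12 (SE, adjusted p = 0.0719). Without LETO 1 it was 0.68 (adjusted p = 0.0209, over all alternatives 0.0209 to 0.60).

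Ifih1, also called MDA5, a sensor of long double-stranded RNA, had −3.45, −3.26 and −3.12 in OLETF and −3.65, −3.69 and −3.82 in LETO. Every OLETF array lay above every LETO array, by a mean of 0.44 ± 0.11 (adjusted p = 0.116), with 0.27 within the first slide. Eif2ak2, the kinase PKR that halts translation on binding double-stranded RNA, averaged −0.78 ± 0.10 in OLETF and −1.06 ± 0.13 in LETO (SD, n = 3 each), again with no overlap. Its difference was 0.28 ± 0.10 (SE, adjusted p = 0.325), and a second probe gave 0.33. Ddx58, also called RIG-I, which senses viral RNA ends, averaged −0.96 ± 0.22 in OLETF and −1.12 ± 0.19 in LETO. Its groups overlapped, and the interval of the difference ran from −0.19 to 0.51 (95%).

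Among the receptors and kinases Ifnar1 rose, and the other 4 tested genes did not pass. Ifnar1, a chain of the type I interferon receptor (rn4 chromosome 11, 31477252 to 31477311), had −1.15, −0.82 and −0.76 in OLETF 1 to 3 and −1.73, −1.78 and −1.72 in LETO 1 to 3. The LETO arrays lay close together and the OLETF arrays all lay above them, with OLETF 1 the lowest of the 3. The difference was 0.84 ± 0.12, or 1.79-fold (SE, adjusted p = 0.0143). The within-slide value was 0.60 (adjusted p = 0.173, over all alternatives 0.00439 to 0.173). The call was also lost without OLETF 2, OLETF 3, LETO 2 or LETO 3, and with no filter on dim probes.

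Ifngr2, the second chain of the interferon-gamma receptor, had 0.92, 0.96 and 0.91 in OLETF and 0.55, 0.66 and 0.57 in LETO. The groups were tight and did not overlap, with a difference of 0.33 ± 0.08 (adjusted p = 0.0999) and 0.32 within the first slide. Its partner chain Ifngr1, which binds the ligand, averaged 2.15 ± 0.09 in OLETF and 2.22 ± 0.21 in LETO (SD, n = 3 each), and the groups overlapped. The kinase Jak1 averaged 0.73 ± 0.14 in OLETF and 0.82 ± 0.10 in LETO, and Jak2 averaged −1.48 ± 0.07 in OLETF and −1.54 ± 0.08 in LETO. The 95% intervals of the differences were −0.37 to 0.22 for Ifngr1, −0.33 to 0.16 for Jak1 and −0.15 to 0.27 for Jak2. Ifngr1 and Jak1 changed sign within the first slide, to 0.029 and 0.073.

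Of the transcription factors Stat2 rose and the other 4 tested did not pass. Stat2, the STAT protein particular to interferon signalling (rn4 chromosome 7, 1580592 to 1580651), had 2.00, 2.11 and 2.01 in OLETF 1 to 3 and 1.36, 1.33 and 1.26 in LETO 1 to 3. Both strains were tight, and the strains lay far apart relative to that spread. The difference was 1.65-fold, with a 95% interval of 0.53 to 0.92 on the log2 scale (adjusted p = 0.00641). It was called under 17 of 18 alternatives, with values from 0.68 to 0.75 (adjusted p from 0.00132 to 0.14). The exception was slide as a block (0.68, adjusted p = 0.14).

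Irf7, the master regulator of type I interferon production, had 1.65, 1.80 and 1.85 in OLETF and 1.27, 0.51 and 0.45 in LETO. The OLETF arrays all lay above the LETO arrays, and LETO 1 lay 0.78 above the mean of the other LETO arrays. The difference was 1.02 ± 0.22 (SE, adjusted p = 0.0675). Without LETO 1 it was 1.28 (adjusted p = 0.00493, over all alternatives 0.00493 to 0.547). Irf9, the DNA-binding partner of Stat2, averaged −1.45 ± 0.09 in OLETF and −1.80 ± 0.26 in LETO (SD, n = 3 each). Its groups overlapped through LETO 1, at −1.52, and the difference of 0.35 ± 0.14 did not pass (adjusted p = 0.37).

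Irf1, an activator of interferon-gamma targets, had 2.29, 1.83 and 1.82 in OLETF and 2.80, 2.25 and 1.76 in LETO. Both strains were wide, the difference was −0.29 ± 0.27 (SE, adjusted p = 0.823) and a second probe gave −0.24. On the first slide Irf1 had 0.023, and it had −0.025 without LETO 1 and −0.55 without LETO 3. Irf3, which is activated by phosphorylation downstream of the sensors, averaged 2.12 ± 0.19 in OLETF and 2.18 ± 0.10 in LETO, with an interval of the difference of −0.34 to 0.22 (95%). Irf2, which opposes Irf1, was not well above background on any array. Irf8, a factor of macrophages and dendritic cells, was above background on 2 OLETF arrays and 1 LETO array, so neither was tested.

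**Figure D3:**
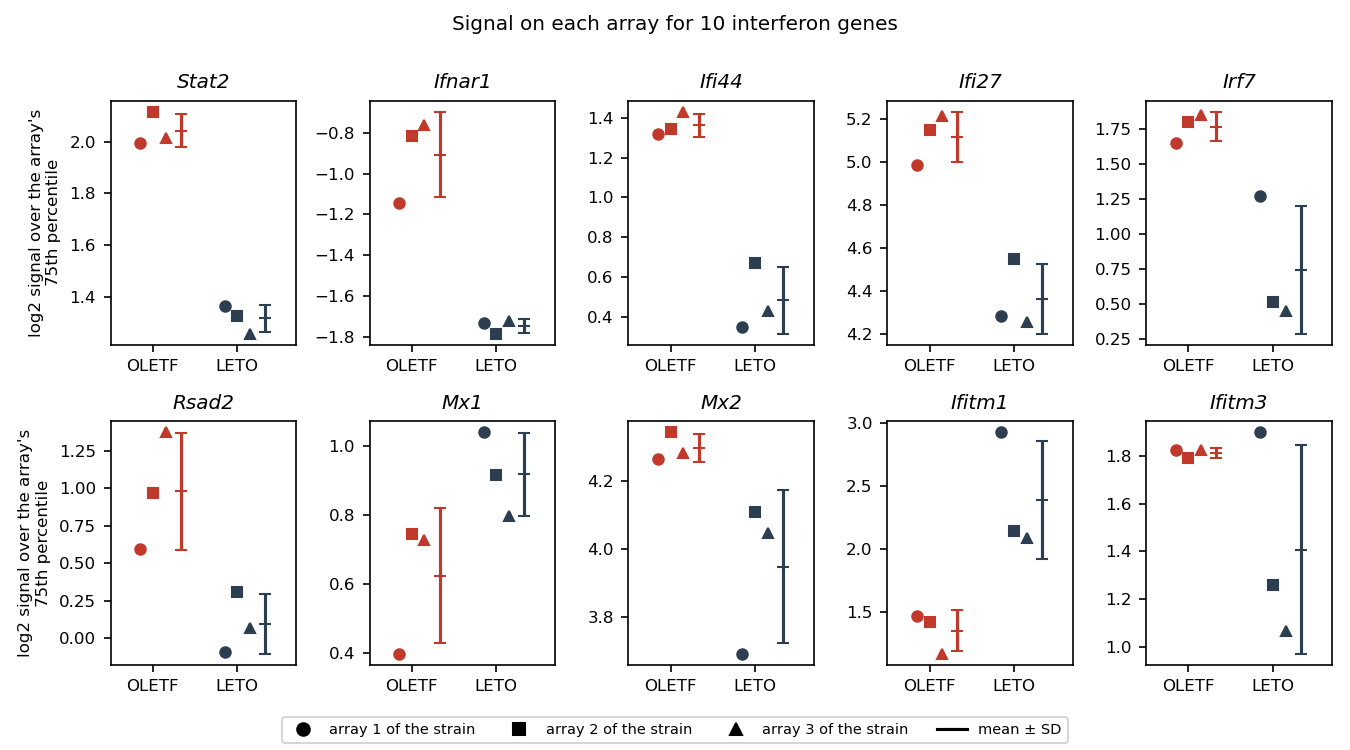
Signal of 10 interferon genes on each array, on the y axis as log2 over the array's 75th percentile, with OLETF left of LETO, 1 symbol per array and the mean with SD beside them. Stat2, Ifnar1, Ifi44 and Ifi27 passed the test, Mx1 and Ifitm1 lay lower in OLETF, and their relatives Mx2 and Ifitm3 had higher means in OLETF.

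Of the 15 effectors tested, Ifi44 and Ifi27 rose and 0 fell, beside 1.5% and 1.05% of all genes. The median was 0.41, and 13 differences were positive, against 47.6% of all genes. These 13 include Oasl, which was tested only because it was above background in OLETF. With the filter on all arrays, which leaves out Oasl, the median was also 0.41. Ifi44, an interferon-induced cytoplasmic protein (rn4 chromosome 2, 250039283 to 250039342), had 1.32, 1.34 and 1.43 in OLETF 1 to 3 and 0.35, 0.67 and 0.43 in LETO 1 to 3. The strains were clearly separate, and the OLETF arrays were tight. The difference was 0.88 ± 0.11, or 1.84-fold (SE, adjusted p = 0.00801). The within-slide value was 0.84 (adjusted p = 0.157, over all alternatives 0.00168 to 0.157), and the call was also lost without OLETF 2 or OLETF 3.

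Ifi27, a small membrane protein induced by type I interferon (rn4 chromosome 6, 127731604 to 127731663), had 4.99, 5.15 and 5.21 in OLETF and 4.28, 4.55 and 4.26 in LETO. OLETF 1 was again the lowest of its strain, and the groups did not overlap. The difference was 1.68-fold, with a 95% interval of 0.48 to 1.02 on the log2 scale (adjusted p = 0.0188). On the first slide the difference was 0.62 (adjusted p = 0.305, over all alternatives 0.00628 to 0.305), and the call was also lost without OLETF 2, OLETF 3 or LETO 3 and with no filter on dim probes.

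Rsad2, known as viperin, an enzyme that makes a chain-terminating nucleotide, had 0.60, 0.97 and 1.37 in OLETF and −0.09, 0.31 and 0.07 in LETO. The groups did not overlap, but the OLETF arrays spread widely, and the difference of 0.88 ± 0.20 did not pass (SE, adjusted p = 0.0887). Within the first slide it was 0.50. Isg15, a ubiquitin-like protein attached to other proteins during the antiviral response, had 0.67, 1.02 and 1.10 in OLETF and 0.77, 0.21 and 0.02 in LETO. LETO 1 lay among the OLETF arrays, and the difference was 0.60 ± 0.21 (adjusted p = 0.286), with 0.33 within the first slide.

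Oas1a, which makes the short adenylate that switches on RNase L, averaged −1.66 ± 0.12 in OLETF and −2.18 ± 0.33 in LETO (SD, n = 3 each), without overlap, and had a difference of 0.52 (adjusted p = 0.237) that was 0.33 without LETO 3. The Oas1 genes of rodents are close relatives, so the identity of the transcript it read is uncertain. Gbp2, a GTPase induced by interferon-gamma, averaged 1.60 ± 0.12 in OLETF and 1.20 ± 0.24 in LETO, without overlap. Ifi35 averaged −0.95 ± 0.07 in OLETF and −1.34 ± 0.11 in LETO, also without overlap. Their differences were 0.41 for Gbp2 (adjusted p = 0.263), with 0.27 within the first slide, and 0.39 for Ifi35 (adjusted p = 0.0975). Bst2, known as tetherin, which holds budding viruses at the cell surface, averaged 3.04 ± 0.19 in OLETF and 2.65 ± 0.24 in LETO, and its groups overlapped (difference 0.39, adjusted p = 0.35).

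The Ifit proteins bind viral RNA or other Ifit proteins. Ifit3 had −0.73, −1.31 and −1.42 in OLETF and −0.53, −1.89 and −2.31 in LETO. LETO 1 was the highest of the 6 arrays, and the difference was 0.42 ± 0.44 (SE, adjusted p = 0.859). It was 0.95 without LETO 1, 0.053 without LETO 3, 0.26 without LETO 2 and 0.21 without OLETF 1. Ifit2 averaged 0.36 ± 0.13 in OLETF and 0.09 ± 0.41 in LETO (SD, n = 3 each), with a difference of 0.27 (adjusted p = 0.741) that was 0.50 without LETO 1 and 0.093 without LETO 3. Ifit1 was not well above background on any array. Oasl, a relative of the Oas enzymes, was above background on 3 OLETF arrays and 1 LETO array, LETO 1. Its signal was −4.98, −5.41 and −5.11 in OLETF and −4.68, −6.20 and −6.72 in LETO. No fold is given for it.

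Neighbouring members did not always have differences of the same sign. Ifitm1 and Ifitm3, which block fusion of viruses with cell membranes, have probes 44.2 kb apart on rn4 chromosome 1. Ifitm1 had 1.47, 1.42 and 1.17 in OLETF 1 to 3 and 2.92, 2.14 and 2.08 in LETO 1 to 3. All OLETF arrays lay below all LETO arrays, with a difference of −1.03 ± 0.23 (SE, adjusted p = 0.0777), and without LETO 1 it was −0.76 (adjusted p = 0.0305, over all alternatives 0.0305 to 0.582). Ifitm3 had 1.82, 1.79 and 1.82 in OLETF and 1.90, 1.26 and 1.07 in LETO. The OLETF arrays were nearly equal, LETO 1 lay above them, and the difference was 0.40 ± 0.20 (adjusted p = 0.515). Without LETO 1 it was 0.65 (adjusted p = 0.0223, over all alternatives 0.0223 to 1.00), and without LETO 3 it was 0.23.

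Mx1 and Mx2, dynamin-like GTPases that block viruses, have probes 134 kb apart on rn4 chromosome 11. Mx1 had 0.40, 0.75 and 0.73 in OLETF and 1.04, 0.92 and 0.80 in LETO, and Mx2 had 4.26, 4.34 and 4.28 in OLETF and 3.69, 4.11 and 4.04 in LETO. Every OLETF array was below every LETO array for Mx1 and above for Mx2. The differences were −0.29 ± 0.13 for Mx1 (SE, adjusted p = 0.408) and 0.35 ± 0.12 for Mx2 (adjusted p = 0.294), so neither passed. Within the first slide they were −0.52 and 0.32, without OLETF 1 Mx1 had −0.18, and without LETO 1 Mx2 had 0.22. Ifnar1 and Ifngr2 have probes 48.6 kb apart on the same chromosome, and both had positive differences. The contrast of the Ifitm pair and of the Mx pair was picked out after the values were seen and was not tested.

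The feedback inhibitors end the interferon signal, and all 3 had negative differences, none of which passed. Usp18, which removes Isg15 from proteins and blocks the type I receptor, had −0.93, −1.08 and −0.84 in OLETF and −0.44, −0.65 and −0.81 in LETO. The OLETF arrays lay just below the LETO arrays, with a difference of −0.31 ± 0.12 (SE, adjusted p = 0.35), and the groups of a second probe overlapped at −0.18. Socs3, an inhibitor of JAK kinases, averaged −2.16 ± 0.22 in OLETF and −1.11 ± 0.99 in LETO (SD, n = 3 each). All OLETF arrays lay below all LETO arrays, but OLETF 1, at −1.91, and LETO 3, at −1.89, were nearly equal. LETO 1 lay 1.66 above the mean of the other LETO arrays. The difference was −1.06 ± 0.45 (SE, adjusted p = 0.402), and −0.50 without LETO 1. Socs1, a second such inhibitor, averaged −5.33 ± 0.17 in OLETF and −5.16 ± 0.56 in LETO, and its difference of −0.17 was 0.088 without LETO 1 and −0.47 without LETO 2. The Socs1 probe was dim. Its signal in LETO 2, −5.76, lay near that of the dimmest spot called well above background on that array, −5.95.

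The spread within LETO was larger than within OLETF in 24 of 32 members, against 63.7% of all genes, with a median SD of 0.13 in OLETF and 0.21 in LETO. LETO 1 was the highest of the LETO arrays in 22 of the 32, against 38.3% of all genes. In Oasl, Ifit3 and Socs3 it lay at least 1 log2 unit above the mean of the others. OLETF 3 was the highest of the 6 arrays in 13 members and LETO 1 in 11, while LETO 3 was the lowest in 18. The highest and lowest of the 6 arrays were not counted over all genes, so these counts are not read as particular to the members. After each gene was centred on its mean, the median of the members was 0.12, 0.18 and 0.23 in OLETF 1 to 3 and 0.03, −0.15 and −0.38 in LETO 1 to 3. The strains did not overlap in this median. For all genes tested the same medians lay between −0.02 and 0.02 on the 6 arrays.

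**Figure D4:**
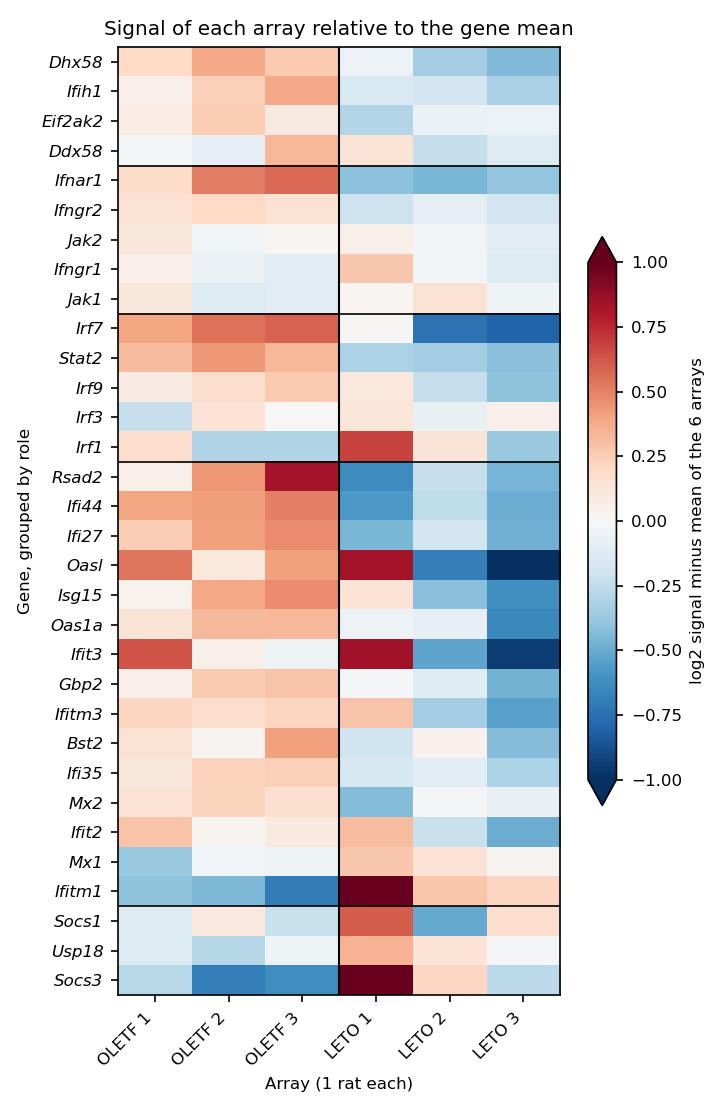
Signal of the 32 tested members on each of the 6 arrays relative to the gene's mean, as a log2 colour scale that is cut at 1 in both directions, with OLETF left of LETO and genes grouped by role. LETO 1 stands out in Socs3, Ifitm1, Ifit3 and Oasl, and LETO 3 is the lowest array in 18 genes, which was not counted over all genes.

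By role the medians were 0.36 for sensors, 0.06 for receptors and kinases, 0.35 for transcription factors, 0.41 for effectors and −0.31 for feedback inhibitors, beside −0.01 for all genes. Within the first slide they were 0.24, 0.14, 0.26, 0.39 and −0.29 in the same order. These medians describe few genes, and differences between roles were not tested. In 17 of the 32 members OLETF 2 and OLETF 3 both lay above OLETF 1. This was not counted over all genes, so it is not read as a trait of the members. The part of slide in the differences was not tested beyond these values.

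**Figure D5:**
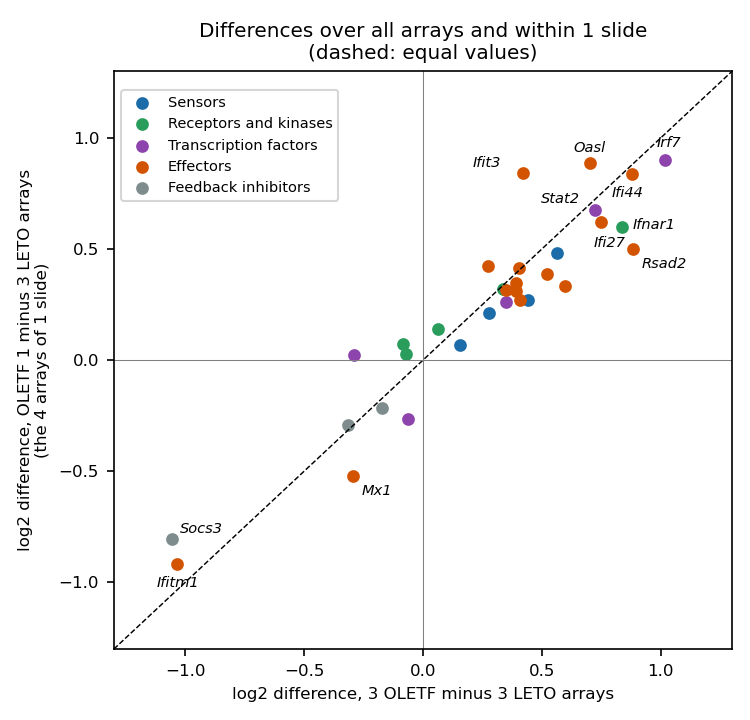
Log2 difference of each member over all 6 arrays (x axis) and within the first slide, OLETF 1 minus the mean of the 3 LETO arrays (y axis), coloured by role, with the dashed line for equal values. Of the 32 points 26 lie above 0 on the y axis, Rsad2 and Ifnar1 lie below the line, and Ifit3 lies above it.

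Other genes of the pathway were read from the same fit. Of 59 further interferon-induced genes 49 were tested, of which 10 rose and 0 fell, against 1.5% and 1.05% of all genes. Their median difference was 0.26, and 38 were positive, while the median was 0.16 with slide as a block. Ifi44l, a relative of Ifi44, was picked out of the list after its values were seen. It did not pass (adjusted p = 0.0509), was tested only because it was above background in LETO, and is given no fold. Its signal was −5.77, −6.24 and −4.89 in OLETF, where 2 of 3 arrays were above background, and −3.98, −3.90 and −4.18 in LETO. Slfn3, a schlafen protein of immune cells, had −1.86, −1.86 and −1.42 in OLETF 1 to 3 and −2.74, −3.17 and −3.09 in LETO 1 to 3, a difference of 1.29 (adjusted p = 0.0101). Rtp4, an interferon-induced protein known first as a chaperone of receptors, rose by 0.90 (adjusted p = 0.00992), and Trex1, which degrades stray DNA in the cytosol, rose by 0.73 (adjusted p = 0.0146). In each of these 3 genes all OLETF arrays lay above all LETO arrays. None of the 10 passed with slide as a block, where Slfn3 had 1.14, Rtp4 0.75 and Trex1 0.78. The count was 5 without OLETF 1, beside 0.949% of all genes, 0 without OLETF 2, beside 0.567%, and 1 without OLETF 3, beside 0.685%. It was 9 without LETO 1, beside 1.98%, 3 without LETO 2, beside 0.873%, and 2 without LETO 3, beside 0.939%.

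Ube2l6 and Uba7 carry out the attachment of Isg15 to proteins, the reaction that Usp18 reverses. Ube2l6, the conjugating enzyme, had −0.99, −0.83 and −0.72 in OLETF and −1.65, −1.47 and −1.77 in LETO, a difference of 0.79 (adjusted p = 0.0172). Uba7, the activating enzyme, chosen after its values were seen, had −1.07, −0.44 and −0.70 in OLETF and −1.53, −1.66 and −1.55 in LETO, a difference of 0.84 (adjusted p = 0.0468). In both genes all OLETF arrays lay above all LETO arrays. Within the first slide Ube2l6 had 0.64 and Uba7 had 0.51, and neither passed. Isg15 itself, at 0.60, and Usp18, at −0.31, had not passed.

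In the remaining lists 0 genes passed. Of 15 other sensors and adaptors 8 were tested, with a median of 0.11, and Tlr3, a sensor of double-stranded RNA in endosomes, had 0.43 (adjusted p = 0.113) and Traf6, an adaptor, had 0.27 (adjusted p = 0.249). Of 17 other receptors and transcription factors 14 were tested, with a median of −0.01, and Nmi had 0.27 (adjusted p = 0.397). Of 9 interferon genes, the ligands, 5 were on the array and 2 were tested. Ifna1 was above background on 3 OLETF arrays and 1 LETO array, and was tested only because it was above background in OLETF. Its signal was −5.07, −4.95 and −5.08 in OLETF and −5.49, −5.87 and −5.33 in LETO (adjusted p = 0.151). Ifna4 had 0.12 (adjusted p = 0.763). Interferon-alpha genes are close relatives, so the transcripts read by these probes are uncertain.

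Markers of other cells were read beside these values. Of 6 tested markers of T or natural killer cells, Cd3g and Nkg7 fell and 0 rose, against 1.05% and 1.5% of all genes. The summed signal of the 6 was 1.69 to 1.84 in OLETF and 2.46 to 2.98 in LETO. With slide as a block neither passed, as Cd3g had −0.70 (adjusted p = 0.237) while Nkg7 had −0.80 (adjusted p = 0.287). Cd8a did not pass and was tested only because it was above background in LETO. It was above background on 2 of 3 OLETF arrays, and no fold is given for it. The strains overlapped for Cd3d at −0.16, Cd2 at −0.25 and Klrd1 at 0.08. Cd2 had 0.26 and Klrd1 had 0.46 within the first slide. Of 7 tested macrophage markers 0 passed, with sums of 25.1 to 28.0 in OLETF and 18.4 to 26.9 in LETO. The sums were 68.1 to 76.7 in OLETF and 52.6 to 66.0 in LETO for 6 fibroblast markers, and 34.1 to 37.9 in OLETF and 31.2 to 36.3 in LETO for 6 endothelial markers, none of which passed. The strains overlapped in the macrophage and endothelial sums and not in the fibroblast and T or natural killer cell sums. The brightest markers weigh most in such a sum, and only 3 of the 6 fibroblast markers had positive differences, with Dcn at 0.40. Postn, with a negative difference, was tested only because it was above background in LETO. It was above background on 2 of 3 OLETF arrays, and its strains overlapped. Markers that include Cd3e, Cd5, Cd68, Cd79b, Ms4a1, S100a8 and S100a9 were not above background on all arrays of either strain. The 1 B cell marker and the 2 neutrophil markers tested did not pass, with neutrophil sums of 0.0605 to 0.0914 in OLETF and 0.0817 to 0.0848 in LETO. The part of these cells in the interferon results was not tested.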

How the data were processed

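Per the file headers, the scanned arrays were quantified in Feature Extraction 10.7.3.1 from Agilent, while the submitters' processing notes name version 9.1. The deposited intensity had its background subtracted and was spatially detrended. The deposited value table holds the same linear intensity divided by 1 constant per array. Its column medians were 0.167, 0.171 and 0.171 in OLETF and 0.176, 0.168 and 0.172 in LETO.

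Control spots and outlier-flagged spots (260 to 356 per array) were left out. Spots of 1 probe were averaged on the log2 scale, and the 75th percentile over probes was subtracted. Probes entered the test when all 3 arrays of either strain called them well above background, and the brightest tested probe stood for each of 18820 genes. The strains were compared with limma (version 3.58.1, under R 4.3.3; lmFit, eBayes, Benjamini-Hochberg at 0.05). Python 3.11.15 with pandas 2.3.3, scipy 1.17.1 and matplotlib 3.10.9 did the rest. The fit was tested on simulated data.

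Probe positions are rn4, per the file headers. RefSeq names were matched through accessions. The members, lists and rules were chosen with earlier results of these data known. All members are named whatever their value, and from each other list up to 4 called genes of smallest p, or 2 where none was called, except items not reported here. The labels speak of 3 independent experiments per strain, so p-values measure the spread between these samples, and the number of arrays limits the precision. Rats of the same number did not deviate together (correlations −0.09, −0.14 and −0.01), so no pairing was used.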

Additional observations from a re-analysis of the deposited data

How the results depend on the processing

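The members' differences kept their sign in 569 of 575 values over 18 alternatives, of which the 75th percentile over spots was added after seeing the data. The signs that changed belonged to uncalled genes: with slide as a block Ifngr1 had 0.029, Jak1 0.073 and Irf1 0.023, without LETO 1 Ifngr1 had 0.046 and Socs1 0.088, and without OLETF 1 Irf3 had 0.039. Over the arrays left out in turn Ifngr1 ranged from −0.16 to 0.046, Irf3 from −0.15 to 0.039 and Socs1 from −0.47 to 0.088. Quantile normalization, median scaling, normexp, the value table, the percentile over spots, the mean of all probes, age as a covariate and the filter on all arrays each left 4 members called higher and 0 lower, and trend with robust called 5. With no filter on dim probes 2 members, 2 other pathway genes and 149 higher and 91 lower genes in all were called, with 26453 genes tested. With slide as a block these counts were 0, 0, 52 and 53, and the medians were 0.24 for sensors and 0.14 for receptors and kinases. The replicate block gave 3 members, 2 other pathway genes and 166 higher genes in all, and Ifi27 lost its call, although the numbers do not pair the rats. Higher calls among other pathway genes were 6 with the percentile over spots, where 262 genes in all were higher. They were 4 with age as a covariate, where 240 genes in all were higher. With normexp, with trend and robust, and with age 1 such gene was lower. Leaving out 1 array in turn gave 1 to 8 members higher and 0 to 1 lower, 0 to 9 other pathway genes higher and 0 to 1 lower, 110 to 374 genes higher and 87 to 241 lower in all, and an effector median of 0.28 to 0.62. The cause of these changes was not tested. Of the calls in the report, Stat2 was lost only with slide as a block among these 18 alternatives. Irf2 and Ifit1, not above background on any array, have only a bound.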
